A study of Mus musculus with 6 samples.

Results

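Annexins and their S100 partners were described in mouse bone marrow as 10 genes: the annexins Anxa1, Anxa2, Anxa3, Anxa4, Anxa5, Anxa6, Anxa7 and Anxa11, and the S100 genes S100a10 and S100a11. They are described from a bulk RNA-seq table of 47729 genes, and they were chosen by name after the measured difference between the genotypes in these same libraries had been seen. All 10 were found by Ensembl identifier and all passed the filter on low counts, among 15686 genes tested. In cluster KO mice (3 libraries) the SNORD113-114 cluster of small nucleolar RNAs is missing, and 3 libraries of wildtype mice serve for comparison. Bone marrow is the labelled tissue for both genotypes. Age, sex, strain, the allele that removes the cluster and any sorting of cells were not known here, and the cluster's own RNAs were not checked. Labels do not tie libraries to single animals: the p-values below reflect variation among libraries, which may be technical. Since the 10 genes were chosen with these differences in view, their differences between genotypes are a description, with no p-value printed. Their calls are listed with the shares of all tested genes, and nothing is read from them.

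Annexins are cytosolic proteins that bind acidic phospholipids when calcium rises, and they act in vesicle traffic, membrane repair and the organisation of the membrane skeleton. S100 proteins are small EF-hand proteins that pair up and dock onto the N-terminal tails of certain annexins. S100A10 binds annexin A2 without needing calcium, and S100A11 binds annexin A1 in a calcium-dependent way. In blood cells annexin A1 is known as a glucocorticoid-induced protein that limits inflammation, and the annexin A2 complex is known as a cell surface site for plasminogen.

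Depth was 21424579 to 23459168 counts on genes per cluster KO library and 17663369 to 22370022 per wildtype library. Levels below are CPM (counts scaled to a common library size after TMM), and a count of 0 would allow at most 0.126 to 0.17 CPM in these libraries, for counting error only. The receptor gene Kit, a marker of stem and progenitor cells, was at 243 to 309 CPM in cluster KO and 349 to 363 CPM in wildtype libraries, while the adult globin gene Hba-a1 was at 49.9 to 78.4 and 112 to 208 CPM. Genes of nuclear and mitochondrial rRNA took 0.614, 0.383 and 0.251% of the counts in cluster KO libraries 1, 2 and 3 and 0.998, 1.08 and 1.44% in wildtype libraries 1, 2 and 3. These shares did not overlap between the genotypes. Nor did those of all genes on the mitochondrial chromosome, at 1.46 to 2.17% in cluster KO and 2.72 to 3.06% in wildtype libraries. The primary granule gene Elane was at 710, 2.19 and 171 CPM in cluster KO, against 251, 296 and 113 CPM in wildtype. Cluster KO 2 was the lowest of the 6 libraries for Elane. It was also lowest for the primary granule genes Mpo (30.6 CPM), Ctsg (7.28 CPM) and Prtn3 (85.0 CPM). In bulk RNA, a change in the number of cells of one type and a change of RNA per cell cannot be told apart.

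Anxa1 and Anxa2 had the largest differences between the genotypes among the 10 genes, and S100a11 encodes a partner of annexin A1, so the 250 bases before their RefSeq start sites are shown to let their promoters be compared. They come from the RefSeq promoter table of build GRCm38.p6, each written 5′ to 3′ on the strand of the gene. Capitals mark matches, on either strand, to a GC box, a TATA box, an AP-1 element or an ETS core, whose letters are given with their counts after the sequences.
Anxa1 (chr19:20390672-20390921, minus strand): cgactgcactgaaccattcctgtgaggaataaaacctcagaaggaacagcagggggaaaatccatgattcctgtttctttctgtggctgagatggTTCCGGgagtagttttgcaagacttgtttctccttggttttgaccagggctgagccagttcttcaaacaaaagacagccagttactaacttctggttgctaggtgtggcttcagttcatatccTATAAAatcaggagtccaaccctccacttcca
Anxa2 (chr9:69453433-69453682, plus strand): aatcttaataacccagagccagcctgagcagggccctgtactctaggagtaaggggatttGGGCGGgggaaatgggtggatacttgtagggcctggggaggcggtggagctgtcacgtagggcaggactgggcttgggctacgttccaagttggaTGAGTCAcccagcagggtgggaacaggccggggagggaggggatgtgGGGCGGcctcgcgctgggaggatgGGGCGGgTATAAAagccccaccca
S100a11 (chr3:93520246-93520495, plus strand): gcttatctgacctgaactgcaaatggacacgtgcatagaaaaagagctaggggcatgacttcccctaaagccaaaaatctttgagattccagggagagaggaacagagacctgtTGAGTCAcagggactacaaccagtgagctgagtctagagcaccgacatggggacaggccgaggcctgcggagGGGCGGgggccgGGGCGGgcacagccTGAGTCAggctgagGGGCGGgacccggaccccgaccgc
The Anxa1 window was 46.0% G and C with 2 CpG dinucleotides, the Anxa2 window 62.4% with 9 and the S100a11 window 60.0% with 11. The TATA box, TATAAA, stood in the Anxa1 and Anxa2 windows, 1 match each, and in 12.4% of all 32851 promoter windows of the same length in the table. The AP-1 element, TGANTCA, was matched 1 time in Anxa2, 2 times in S100a11 and 0 times in Anxa1, and in 6.75% of all windows. The GC box, GGGCGG, was matched 3 times each in Anxa2 and S100a11 and 0 times in Anxa1, and in 32.7% of all windows. The ETS core, CCGGAA, was matched 1 time in Anxa1, and in 12.0% of all windows. Another motif searched, the CCAAT box (CCAAT), was in none of these 3 windows and in 33.8% of all of them. No 2 matches overlapped in these windows. Promoter windows were found for 7 of the 10 genes, and those of Anxa4, Anxa5, Anxa7 and Anxa11 were searched too. Anxa7 had 1 and 4 GC boxes in its 2 overlapping windows, Anxa11 had 3 GC boxes and 1 ETS core, and none of the searched motifs was in the windows of Anxa4 or Anxa5.

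Annexin A1 was the member that differed most. Anxa1 (chromosome 19, 20373428 to 20390944, minus strand, mm10) was at 591, 568 and 545 CPM in cluster KO, against 173, 196 and 195 CPM in wildtype libraries. All 3 cluster KO values lay near 3 times the wildtype values, and the genotypes were far from overlapping. The means were 568 ± 23.3 CPM in cluster KO and 188 ± 13.2 CPM in wildtype (SD, n = 3 each), a log2 fold change of 1.60 (SE 0.10), or 3.02-fold. The value was 1.30 with trends over transcript length and GC content removed. Anxa1 took 41.0 ± 2.5% of the summed CPM of the 8 annexins in cluster KO and 28.4 ± 3.2% in wildtype libraries. Its share was highest in cluster KO 1, at 43.6%, and lowest in wildtype 1, at 25%.

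Annexin A2 followed. Anxa2 (chromosome 9, 69453620 to 69491795, plus strand) was at 186, 204 and 187 CPM in cluster KO, against 85.0, 77.9 and 62.6 CPM in wildtype libraries. The cluster KO values were more alike than the wildtype values, with coefficients of variation of 5.27% and 15.2%, and the genotypes did not overlap. Its log2 fold change was 1.36 (SE 0.14), or 2.56-fold, and lay between 1.24 and 1.45 over the 12 other settings.

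Anxa6, Anxa5 and Anxa4 were higher in cluster KO by smaller amounts, and their libraries did not overlap either. Anxa6 (chromosome 11, 54979108 to 55033445), the annexin whose core is duplicated, had 46.2, 66.7 and 72.2 CPM in cluster KO libraries, against 36.6, 31.5 and 26.8 CPM in wildtype, a log2 fold change of 0.96 (SE 0.19). Anxa5 (chromosome 3, 36448923 to 36475894), known for binding exposed phosphatidylserine on dying cells, had 264, 322 and 316 CPM in cluster KO libraries, against 204, 186 and 152 CPM in wildtype, a log2 fold change of 0.73 (SE 0.14). Anxa4 (chromosome 6, 86736840 to 86793584), an annexin of intracellular membranes, had 99.4, 104 and 133 CPM in cluster KO libraries, against 79.2, 69.0 and 66.1 CPM in wildtype, a log2 fold change of 0.65 (SE 0.15). In each genotype Anxa4 and Anxa6 were lowest in the library with the largest share of counts on rRNA genes and highest in the one with the smallest. Anxa1 went the other way among the cluster KO libraries, where it was highest at the largest rRNA share. That opposite order in both genotypes held for 9.66% of all tested genes. Since the rRNA share also separated the genotypes, the part of RNA quality in these values cannot be told apart from that of genotype, and was not tested.

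The remaining annexins differed little or unevenly. Anxa7 (chromosome 14, 20455260 to 20480133), first known as synexin for its aggregation of secretory granules, had 107, 105 and 127 CPM in cluster KO libraries, against 92.6, 89.9 and 89.2 CPM in wildtype, a log2 fold change of 0.32 (SE 0.12). Anxa3 (chromosome 5, 96793339 to 96845966), an annexin found in human neutrophils, had 54.8, 17.4 and 22 CPM in cluster KO libraries, against 13.1, 23.8 and 17.2 CPM in wildtype. It was high in cluster KO 1 alone, the library with the most Elane, and the other cluster KO values lay within the wildtype range. Its log2 fold change of 0.80 (SE 0.39) was 0.12 without cluster KO 1. Anxa11 (chromosome 14, 25842156 to 25886804), whose long disordered tail tethers RNA granules to lysosomes, was the least abundant, at 7.40, 6.69 and 7.29 CPM in cluster KO libraries, against 7.51, 9.06 and 10.2 CPM in wildtype. Its log2 fold change was -0.32 (SE 0.23), and -0.66 with length and GC trends removed. Of its transcripts' 50-base words, 14.5% also occur in the pseudogene Gm2260 and 13.2% in Gm2274, which both had 0 counts in all 6 libraries, so its counts are uncertain.

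The S100 partners differed by less than Anxa1 and Anxa2, and S100a10 in the other direction. S100a10 (chromosome 3, 93555080 to 93564643), the partner of annexin A2, whose EF hands no longer bind calcium, was at 313, 283 and 249 CPM in cluster KO, against 374, 382 and 350 CPM in wildtype libraries. It was the one member called lower, with a log2 fold change of -0.39 (SE 0.11). That call was lost in 7 of 11 repeat tests, among them those without cluster KO 2 (-0.39), cluster KO 3 (-0.31), wildtype 1 (-0.38), wildtype 2 (-0.36) or wildtype 3 (-0.42), and the difference was -0.24 with length and GC trends removed. S100a11 (chromosome 3, 93520488 to 93526287), the partner of annexin A1, was at 238, 201 and 173 CPM in cluster KO, against 168, 171 and 172 CPM. The wildtype values were nearly equal and cluster KO 3 sat beside them, with a log2 fold change of 0.26 (SE 0.13), which was 0.13 without cluster KO 1 and 0.47 with length and GC trends removed. Within cluster KO, S100a10 and S100a11 were both highest in library 1 and lowest in library 3, as was the rRNA share. S100a11 ran with the rRNA share among the wildtype libraries too, though only from 168 to 172 CPM. S100a11 shares 41.1% of its 50-base words with the pseudogene Gm12854, which had 0 to 5 counts per library, and 23.4% with Gm7665, so its counts are uncertain.

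**Figure D1:**
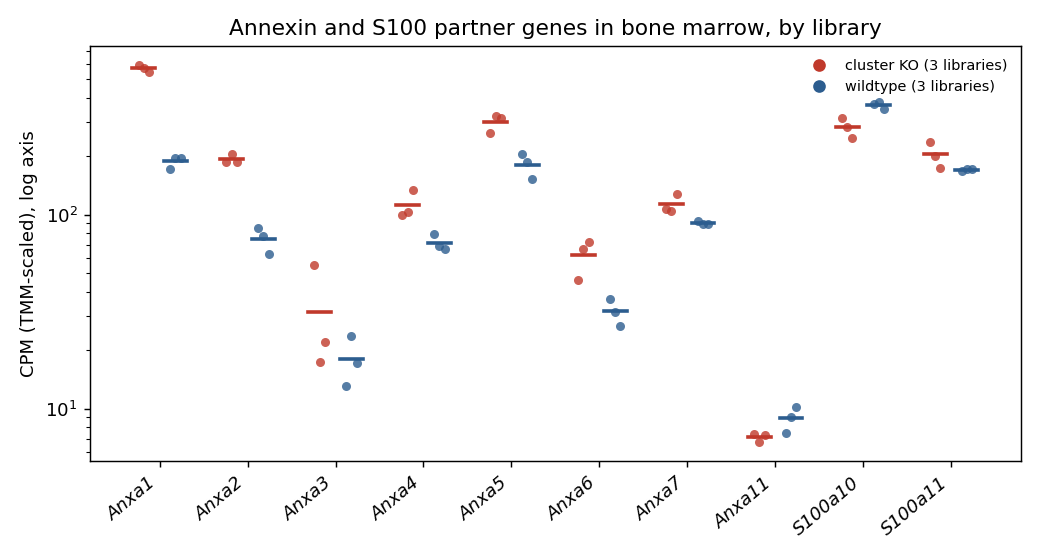
CPM of the 10 genes on a log axis in 3 cluster KO and 3 wildtype libraries, with a bar at each mean. Anxa1 at 545 to 591 CPM in cluster KO lies clear of 173 to 196 CPM in wildtype, while S100a10 is lower in cluster KO and Anxa3 has 1 high cluster KO library.

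Of the 10 genes, 5 were called higher (Anxa1, Anxa2, Anxa4, Anxa5 and Anxa6), 1 was called lower (S100a10) and 4 were not called, by edgeR's quasi-likelihood test at an adjusted p of 0.05. Over all tested genes 15.9% were called higher and 12.1% lower, 27.9% in all. The genotypes did not overlap for 9 of the 10 genes, beside 46.0% of all tested genes: 7 lay higher in cluster KO, beside 22.9% of all, and 2 lower, beside 23.1%. Nothing is read from these counts, since the genes were chosen from this comparison. Refits of the same libraries add no independent evidence on genes chosen in this way. Anxa4 was not called without wildtype 2 (log2 fold change 0.63), without wildtype 3 (0.60) or with the replicate block (0.64). Anxa7 was called by DESeq2 alone (0.33), where 19.3% of all tested genes were called higher and 14.7% lower, and S100a11 by edgeR without cluster KO 3 alone (0.37).

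**Figure D2:**
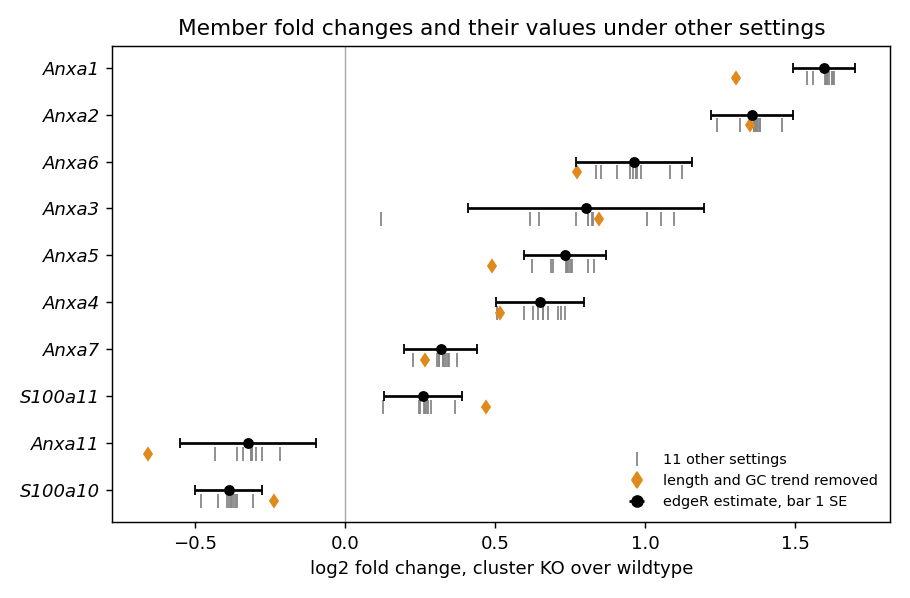
Log2 fold change of cluster KO over wildtype for the 10 genes, with bars of 1 SE, the values under 11 other settings as ticks and the value with length and GC trends removed as a diamond. Anxa1 and Anxa2 stay above 1.2 throughout, and Anxa3 spreads from 0.12 to 1.10.

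Levels of different genes were compared per length, as CPM per kb of exonic length. In cluster KO the order was S100a11 (399 ± 63.6), S100a10 (233 ± 26.3), Anxa1 (195 ± 8.0), Anxa5 (169 ± 18), Anxa2 (51.6 ± 2.7), Anxa4 (24.1 ± 4.0), Anxa6 (21.1 ± 4.7), Anxa7 (18.8 ± 2.1), Anxa3 (8.62 ± 5.59) and Anxa11 (1.72 ± 0.093 CPM per kb, SD, n = 3). Among the cluster KO libraries the ranges of Anxa4, Anxa6 and Anxa7 overlapped, and those of no other neighbours in that order did. Wildtype libraries had S100a11 (334 ± 3.9) and S100a10 (304 ± 13.8) on top, then Anxa5 (102 ± 14.8), Anxa1 (64.5 ± 4.5) and Anxa2 (20.1 ± 3.1 CPM per kb). Anxa4 (15.4 ± 1.5), Anxa7 (15.1 ± 0.30), Anxa6 (10.8 ± 1.7), Anxa3 (4.95 ± 1.48) and Anxa11 (2.16 ± 0.33 CPM per kb) followed. In wildtype the range of Anxa4 overlapped those of Anxa2 and Anxa7. Anxa1 stood above Anxa5 in all 3 cluster KO libraries, at 1.37, 1.08 and 1.05 times its level, and below it in wildtype, at 0.516, 0.644 and 0.78 times. By mean CPM per kb Anxa1 ranked 379 of 15686 tested genes in cluster KO and 1072 in wildtype. With the median transcript length in place of the exonic length, S100a10 came before S100a11, and Anxa3 before Anxa6, in both genotypes. In cluster KO, Anxa3 then also came before Anxa7, and Anxa7 before Anxa6.

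**Figure D3:**
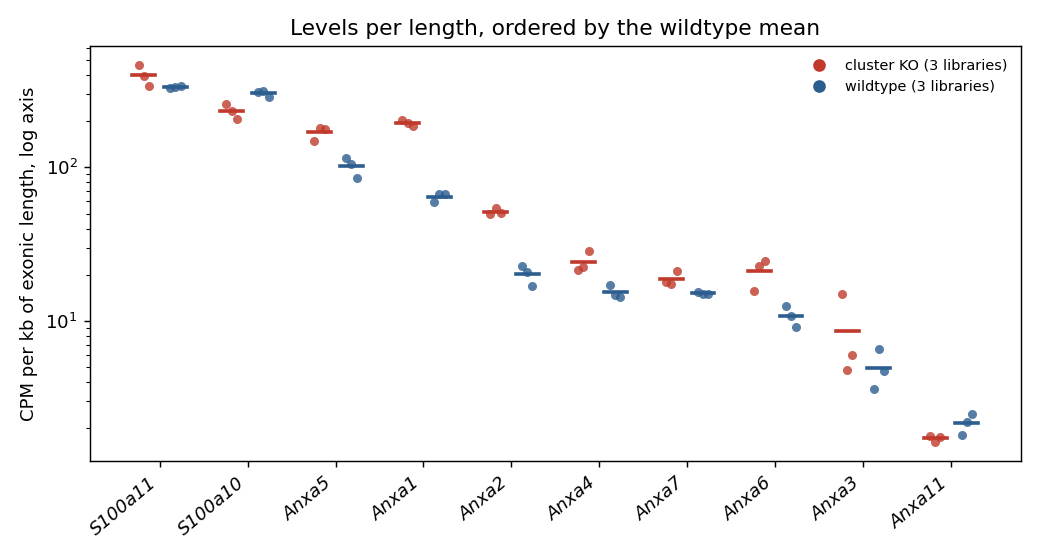
CPM per kb of exonic length on a log axis, genes ordered by the wildtype mean, with a point per library and a bar at each mean. Anxa1 lies below Anxa5 in wildtype and above it in cluster KO.

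Relative to its S100 partner, each of the docking annexins was higher in cluster KO. The ratio of Anxa2 to S100a10, in CPM per kb, was 0.193, 0.234 and 0.244 in cluster KO, against 0.0739, 0.0662 and 0.0581 in wildtype libraries. The ratio of Anxa1 to S100a11 was 0.436, 0.495 and 0.553 against 0.18, 0.202 and 0.198. Both ratios stayed below 1 in all 6 libraries, so the S100 mRNA was the more abundant one of each pair per kb of exonic length. Their size depends on the length used. Exonic and median transcript lengths are 2911 and 1648 bases for Anxa1 and both 511 for S100a11. They are 3731 and 752.5 for Anxa2 and 1212 and 581 for S100a10. By transcript length both ratios are higher, and the genotype means still placed the S100 gene of each pair first. The ratio of S100a10 to S100a11 was 0.585 ± 0.027 in cluster KO and 0.912 ± 0.048 in wildtype (SD, n = 3 each). Whether this last ratio lies below 1 depends on the length used, since S100a10 came first by median transcript length. Summed over the 8 annexins, the level was 1356, 1393 and 1410 CPM in cluster KO, against 691, 683 and 619 CPM, and without Anxa1 it was 765, 825 and 865 against 518, 487 and 424 CPM. The summed level of S100a10 and S100a11 was 551, 484 and 422 CPM against 542, 553 and 522 CPM, so the genotypes overlapped there.

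**Figure D4:**
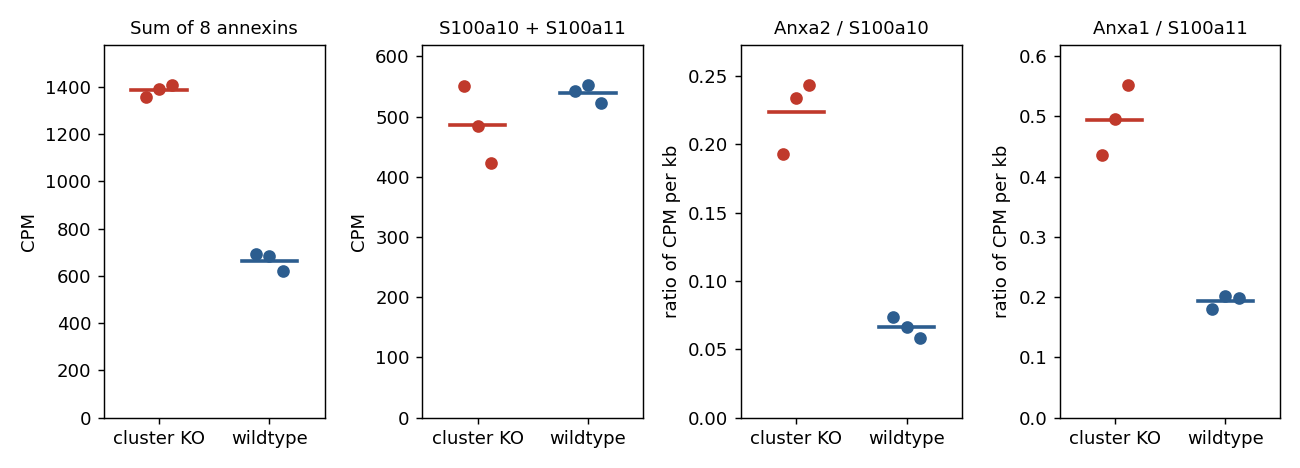
Summed CPM of the 8 annexins and of S100a10 with S100a11, and the ratios of Anxa2 to S100a10 and Anxa1 to S100a11 in CPM per kb, as a point per library with a bar at each mean and axes from 0. The annexin sum and both ratios separate the genotypes, while the S100 sum overlaps.

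The profiles of the members over the 6 libraries were compared by the root mean square difference of log2(CPM + 0.5) after each gene was centred on its mean. That mean spans both genotypes, so genes with unlike log2 fold changes lie far apart by construction. The distances therefore include the genotype difference that was known when the members were chosen. Likeness within a genotype was not tested. Anxa4 and Anxa5 were the most alike pair (0.139), followed by Anxa5 and Anxa6 (0.151), and S100a10 was nearer to Anxa11 (0.186) than to its partner Anxa2 (0.888). Among 11588 other named protein-coding genes with a mean of at least 1 CPM, those nearest to Anxa2 were Upp1 (0.0647), Napsa (0.0727), BC035044 (0.0755), Ltb4r1 (0.0788) and H2-Ob (0.0802). Those nearest to S100a10 were Pomp (0.0313), Hdlbp (0.0328), Mrps12 (0.0341), Mrpl36 (0.0406) and Eef1a1 (0.0412). The first gene of each list had a log2 fold change close to that of its member. It was 1.43 for Upp1 beside 1.36 for Anxa2, and -0.40 for Pomp beside -0.39 for S100a10.

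Of the other annexin and S100 genes 10 had counts enough to test, and 2 of them, S100a1 and S100a13, were called lower. Anxa8, Anxa10 and Anxa13 had 0 counts in all 6 libraries. Anxa9, an annexin that lacks the usual calcium sites, was at 19.8, 23.4 and 23.3 CPM in cluster KO, against 23.6, 18.7 and 9.02 CPM (log2 fold change 0.37, SE 0.30, edgeR adjusted p = 0.38). Of 14 further S100 genes on the list 9 were tested, of which 0 were called higher and 2 lower, beside 15.9% higher and 12.1% lower of all tested genes. Their median log2 fold change was 0.19, beside 0.0024 over all tested genes. S100a1, best known as a calcium sensor of heart muscle, fell to 121, 92.4 and 91.3 CPM in cluster KO, against 150, 164 and 160 CPM in wildtype (log2 fold change -0.64, SE 0.14, edgeR adjusted p = 0.00829, and 0.0531 without cluster KO 2). S100a13, linked to export of proteins that lack a signal peptide, was at 90.1, 71.1 and 63.9 CPM against 96.3, 99.6 and 115 CPM (-0.46, SE 0.15, edgeR adjusted p = 0.0441), a call lost without any one of cluster KO 2, cluster KO 3, wildtype 1, wildtype 2 or wildtype 3 (-0.51 to -0.36, adjusted p 0.0722 to 0.162). S100pbp, no S100 gene but one that encodes a binding protein of S100P in humans, stood on the same list and had a log2 fold change of -0.67 (SE 0.19, edgeR adjusted p = 0.0286), a call lost without cluster KO 2, cluster KO 3, wildtype 1 or wildtype 2 (-0.68 to -0.56, adjusted p 0.0791 to 0.0955). S100a3 did not pass (1.07, SE 0.45, edgeR adjusted p = 0.0994). S100a6, whose protein also binds annexins and which was chosen after its values were seen, was at 92.5, 78.9 and 63.7 CPM against 56.3, 53.3 and 96.5 CPM (0.19, SE 0.23, edgeR adjusted p = 0.571). S100a8, named in the same way, was at 5662.5, 3182 and 2573 CPM against 1896, 2875 and 4271 CPM (0.34, SE 0.37, edgeR adjusted p = 0.534). The genotypes overlapped for it and for S100a9 (0.41, SE 0.35, edgeR adjusted p = 0.419). In both genotypes S100a3, S100a8, S100a9 and S100a13 ran with the rRNA share, an order that 8.73% of all tested genes shared. The part of RNA quality in their values was not tested.

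Receptors that annexin A1 acts through were listed with eicosanoid synthesis. Of 7 tested genes of this list 1 rose and 0 fell, beside 15.9% and 12.1% of all tested genes, with a median log2 fold change of 0.42. The formyl peptide receptor gene Fpr1 rose to 18.5, 18.2 and 14.2 CPM in cluster KO, against 4.84, 3.17 and 2.05 CPM in wildtype (log2 fold change 2.33, SE 0.31, edgeR adjusted p = 0.00217), with no overlap. Fpr2, the receptor best known for annexin A1, was at 18.2, 15.3 and 6.88 CPM against 3.71, 5.94 and 9.33 CPM (1.09, SE 0.40, edgeR adjusted p = 0.0686). With 1 library left out its edgeR adjusted p ran from 0.0216 (without cluster KO 3) to 0.191 (without wildtype 1). Pla2g4a, the cytosolic phospholipase A2 gene, did not pass (0.42, SE 0.18, edgeR adjusted p = 0.114, from 0.0219 without cluster KO 1 to 0.348 without cluster KO 3), nor did the lipoxygenase gene Alox5 (0.68, SE 0.31, edgeR adjusted p = 0.126).

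The plasminogen system, in which the annexin A2 complex takes part, was measured through few genes. Of 10 listed genes 4 were tested, of which 3 rose and 0 fell, beside 15.9% and 12.1% of all tested genes, with a median log2 fold change of 1.68. Plaur, the receptor of urokinase, rose to 34.2, 40.4 and 35.6 CPM in cluster KO, against 10.6, 14.4 and 11.1 CPM (log2 fold change 1.61, SE 0.18, edgeR adjusted p = 0.00114). Serpine2, an inhibitor of plasminogen activators and thrombin, rose to 47.7, 41.6 and 42.5 CPM against 14, 13.9 and 11.2 CPM (1.75, SE 0.16, edgeR adjusted p = 0.000456). Eno1, a glycolytic enzyme also found as a plasminogen receptor, rose to 224, 341 and 406 CPM against 123, 103 and 64.3 CPM (1.74, SE 0.26, edgeR adjusted p = 0.00266), and its counts are uncertain, since 25.3% of its 50-base words also occur in Eno1b, which had 16 to 42 counts per library. Plgrkt, a membrane receptor of plasminogen, had a log2 fold change of -0.059 (SE 0.11, edgeR adjusted p = 0.72). Plasminogen itself (Plg) had 0 counts, and Plau and Plat too few to test.

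Other proteins bind annexins directly. Of 10 tested partners 2 rose and 0 fell, near the 15.9% and 12.1% of all tested genes, with a median log2 fold change of 0.015. Pef1, a penta-EF-hand protein of a family with members that bind annexins A7 and A11, rose to 48.6, 72.8 and 115 CPM in cluster KO, against 29.5, 23.7 and 19.2 CPM (1.71, SE 0.29, edgeR adjusted p = 0.00373). In both genotypes Pef1 ran opposite to the rRNA share, as did Eno1, and the part of RNA quality was not tested. Pfn1, which encodes the actin-binding protein profilin, also passed (0.41, SE 0.13, edgeR adjusted p = 0.0344), and without cluster KO 2, cluster KO 3, wildtype 2 or wildtype 3 the value was 0.27 to 0.47 with an adjusted p of 0.0616 to 0.121. The ferlin gene Myof (0.63, SE 0.28, edgeR adjusted p = 0.112) and the actin crosslinker gene Actn1 (-0.38, SE 0.41, edgeR adjusted p = 0.524) did not. Neither did the listed partners Pdcd6 (0.067, SE 0.10, edgeR adjusted p = 0.652) and Sri (0.055, SE 0.092, edgeR adjusted p = 0.684), named after their values were seen.

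Membrane repair genes were called in both directions. Of 14 tested 5 rose and 2 fell, beside 15.9% and 12.1% of all tested genes, with a median log2 fold change of 0.18. Chmp6 (1.0, SE 0.15, edgeR adjusted p = 0.00269) and Chmp1a (1.44, SE 0.25, edgeR adjusted p = 0.00409), of the ESCRT-III complex that pinches off membrane, rose. So did Vps4a, the ATPase that recycles it (0.65, SE 0.13, edgeR adjusted p = 0.00769), and Smpd1, the acid sphingomyelinase (1.01, SE 0.22, edgeR adjusted p = 0.00941). The members that fell, named after their values were seen, were Chmp4b, also of ESCRT-III (-1.04, SE 0.23, edgeR adjusted p = 0.00997), and Capns1, the small calpain subunit (-0.77, SE 0.21, edgeR adjusted p = 0.0224). Whether the calls of Chmp4b and Capns1 hold with a library left out was not examined gene by gene. In both genotypes Chmp1a ran opposite to the rRNA share and Chmp4b and Capns1 ran with it, an order that 8.73% of all tested genes shared.

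Genes that set or read phosphatidylserine on the cell surface, the lipid that annexin A5 binds, also went both ways. Of 10 tested flippases and scramblases 2 rose and 1 fell, near the 15.9% and 12.1% of all tested genes, with a median log2 fold change of -0.12. The flippase gene Atp8a1 fell to 80.4, 75.2 and 67.2 CPM in cluster KO, against 124, 113 and 119 CPM (-0.68, SE 0.12, edgeR adjusted p = 0.00448). Plscr3 rose (0.59, SE 0.14, edgeR adjusted p = 0.0146), and without cluster KO 2, wildtype 1 or wildtype 3 the value was 0.53 to 0.56 with an adjusted p of 0.0569 to 0.0688. Atp8b4 passed (0.53, SE 0.17, edgeR adjusted p = 0.0405) and lost its call without any single library (0.41 to 0.60, adjusted p 0.0541 to 0.138). Plscr1 did not pass (0.42, SE 0.16, edgeR adjusted p = 0.0701, from 0.0146 without cluster KO 1 to 0.226 without wildtype 3). Of 9 tested genes that recognise the lipid 2 rose and 0 fell, beside the same shares of all genes, with a median of -0.32: the receptor gene Cd300a (1.15, SE 0.19, edgeR adjusted p = 0.00329) and the bridging protein gene Mfge8 (1.03, SE 0.20, edgeR adjusted p = 0.00575). Cd300a ran opposite to the rRNA share in both genotypes. The engulfment receptors Mertk (-1.11, SE 0.63, edgeR adjusted p = 0.211) and Axl (-0.48, SE 0.29, edgeR adjusted p = 0.233) did not pass.

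Genes that respond to glucocorticoids, as Anxa1 is known to do, were split. Of 10 tested 3 rose and 3 fell, beside 15.9% and 12.1% of all tested genes, with a median log2 fold change of -0.26. Tsc22d3, the glucocorticoid-induced leucine zipper, rose to 220, 275 and 324 CPM in cluster KO, against 126, 118 and 101 CPM (1.25, SE 0.15, edgeR adjusted p = 0.00167), and the phosphatase gene Dusp1 rose as well (1.91, SE 0.26, edgeR adjusted p = 0.00229). Tsc22d3 ran opposite to the rRNA share in both genotypes, and Dusp1 did so among the cluster KO libraries. The clock gene Per1 fell (-2.04, SE 0.24, edgeR adjusted p = 0.0013). The receptor gene Nr3c1 was at 97.0, 85.5 and 84.6 CPM against 118, 112 and 123 CPM (-0.40, SE 0.12, edgeR adjusted p = 0.0291), a call lost without cluster KO 2, cluster KO 3, wildtype 1, wildtype 2 or wildtype 3 (-0.43 to -0.37, adjusted p 0.0585 to 0.134).

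**Figure D5:**
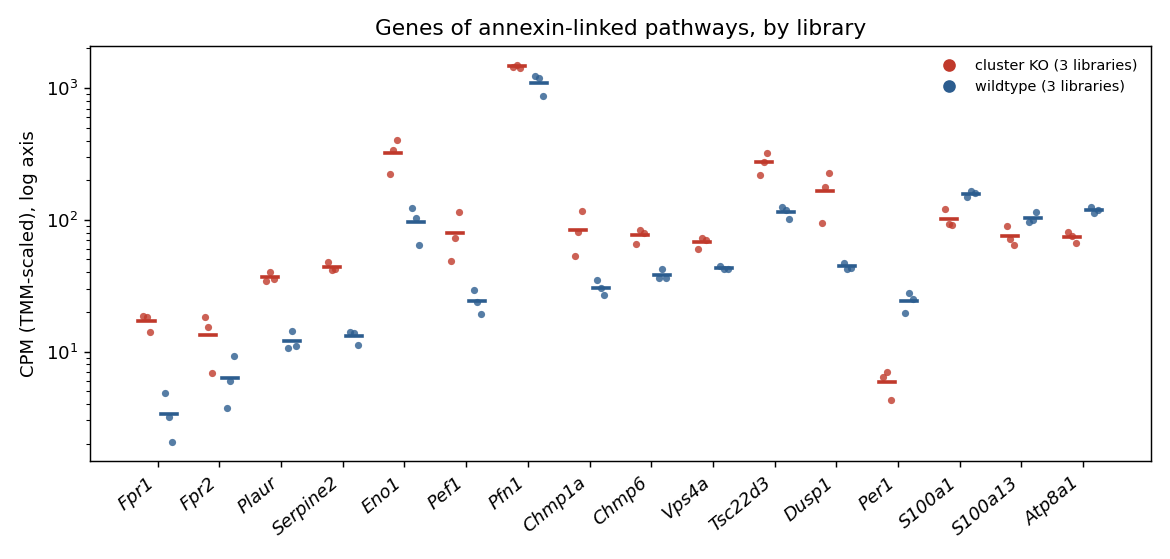
CPM on a log axis of 16 genes of annexin-linked pathways in 3 cluster KO and 3 wildtype libraries, with a bar at each mean. Fpr1, Plaur and Serpine2 lie higher in cluster KO without overlap, Per1, S100a1 and Atp8a1 lower, and Fpr2 overlaps.

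Markers of blood cell types that express annexins differed between the same libraries. Of all tested genes 15.9% were called higher and 12.1% lower, the shares to set beside each count in this paragraph. Summed over the 14 neutrophil markers the level was 5997 to 10007 CPM in cluster KO and 2883 to 4258 CPM in wildtype, with 6 genes higher and 0 lower. Much of that sum was Ngp, which spanned 3117 to 4457 CPM among knockout libraries and 955 to 1468 CPM among wildtype ones. Camp, the next in level, overlapped and was not called (log2 fold change 0.28, SE 0.35, edgeR adjusted p = 0.595). Nor were Elane (0.42), Prtn3 (0.13), Mpo (0.11) and Ctsg (0.044), which overlapped too. Camp and these genes were named after their values were seen. Ngp (1.52, SE 0.18, edgeR adjusted p = 0.0013) and Ltf (1.54, SE 0.19, edgeR adjusted p = 0.00168) rose, and Ly6g did too (0.94, SE 0.24, edgeR adjusted p = 0.0188), and without cluster KO 2, wildtype 1 or wildtype 2 the value was 0.74 to 1.01 with an adjusted p of 0.0527 to 0.0633. The 10 B lineage markers summed to 1967 to 2084 CPM against 614 to 656 CPM, with 7 higher and 0 lower, led by Cd79a (2.20, SE 0.11, edgeR adjusted p = 1e-05) and Igll1 (1.58, SE 0.10, edgeR adjusted p = 6.44e-05). The 14 monocyte and macrophage markers summed to 196 to 328 CPM against 186 to 199 CPM, with 1 higher (Cd68, which lost its call without cluster KO 2 or wildtype 3), and their first marker, Csf1r, was at 5.71, 2.95 and 1.02 CPM against 3.35, 4.64 and 4.3 CPM. Sums of erythroid markers, 946 to 1163 against 1317 to 1692 CPM with 0 higher and 5 lower, and of megakaryocyte markers, 300.2 to 309 against 440.1 to 544 CPM with 1 higher and 3 lower, were lower in cluster KO. Of the T and NK markers 3 of 11 rose and 1 fell, of mast cell, basophil and eosinophil markers 1 of 8 and 1, of dendritic markers 2 of 9 and 0, of stroma and endothelium 2 of 9 and 0, and of stem and progenitor markers 6 of 12 and 2. None of the listed markers, tested or not, had 0 counts in all 6 libraries. The part of these cell types in the annexin values was not tested.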

How the data were processed

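Per the labels' protocols, libraries were made from bone marrow whole cell extracts with a poly(A) kit and Nextera XT, which keep no strand. Tools named in the submitters' processing notes are bcl2fastq, TopHat2 and HTSeq, with the mm10 build, and their versions and settings were not known here. The authors deposited 1 table of raw counts by Ensembl gene ID, with 5 HTSeq summary rows that were left out here. These rows held 13.4 to 14.7% (cluster KO) and 16.1 to 16.8% (wildtype) of the reads as multiply aligned, 7.29 to 10.1% and 10.0 to 11.1% as outside genes, and 2.71 to 2.82% and 2.92 to 2.95% as ambiguous. Names, positions (mm10, as GRCm38) and exonic lengths came from GENCODE M21, which matched 47224 of 47729 genes.

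Cluster KO was compared with wildtype by edgeR 4.0.16 in R 4.3.3: TMM, filterByExpr (minimum count 10), the robust quasi-likelihood model on genotype alone, and Benjamini-Hochberg adjustment over 15686 genes at 0.05. The SE is the coefficient divided by the square root of F. CPM is on TMM-scaled totals. The members and lists were chosen with earlier results of these data known. The rule for named genes took all members, and of each pathway list every tested gene up to 6, otherwise the 4 with the smallest p; of each cell type list the first marker and up to 2 with the smallest p, of which examples are given. S100pbp was on the list of S100 genes and is counted apart from them. Alternatives were RLE factors, no TMM, DESeq2 1.42.0, no filter, a replicate block, each library left out, and removal of length and GC trends (mgcv 1.9.3) from the members' values. Overlapping genes on either strand shared at most 113 exonic bases with a member and had at most 18 counts per library.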

Additional observations from a re-analysis of the deposited data

How the results depend on the processing

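All 10 members kept their direction under the 12 alternatives, and 6 of their 120 values moved by more than the spread between libraries. These were Anxa3 without cluster KO 1 (0.12), and Anxa1, Anxa5, Anxa11, S100a10 and S100a11 with length and GC trends removed (1.30, 0.49, -0.66, -0.24 and 0.47), an alternative that gives values without calls. With the replicate block, 1331 genes were called higher and 865 lower, and 0 members lower. The block left 1 call in each of the S100 (with S100pbp), annexin partner, dendritic and stroma lists and 3 in each of the erythroid and stem and progenitor lists. Same-numbered libraries deviated with correlations of -0.197, -0.00404 and -0.174. With 3 libraries per genotype these values cannot tell whether the numbers pair them. Without the filter 0 members were called lower, and 2 monocyte and 3 erythroid markers were called, while DESeq2 called 2 genes of the formyl peptide receptor list and 4 monocyte markers. Leaving out 1 library at a time gave 1258 to 3151 genes higher and 742 to 2579 lower, 4 to 6 members higher and 0 to 1 lower. In the same fits the calls numbered 0 to 3 for other S100 genes with S100pbp, 1 to 2 for annexin partners, 1 to 2 for formyl peptide receptors, 3 to 6 for glucocorticoid response, 4 to 9 for membrane repair, 1 to 3 for phosphatidylserine exposure and 2 to 3 for its recognition. They numbered 0 to 2 for monocyte, 2 to 4 for erythroid, 2 to 4 for megakaryocyte, 1 to 2 for dendritic, 0 to 3 for stroma and 3 to 10 for stem and progenitor markers. Csf1r, which did not pass, ranged from -1.04 without cluster KO 1 to 0.079 without cluster KO 3, and the T cell marker Cd3e from -0.49 without cluster KO 1 to 2.02 without wildtype 1. The cause was not tested. Depth limits Anxa11, with 157 to 199 raw counts per library, more than Anxa1, with 3466 to 13494.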
